A study of Mus musculus with 75 samples.

Results

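Lungs of mice taken 35 days after bleomycin were compared with lungs taken 28 days after bleomycin, with 12 mice per day. These 24 mice were chosen by the day in their labels, and they are 24 of the 75 mice with a library in the series. Of 55536 genes in the count table, 16221 passed a filter on low counts and were tested. Replicate 10 of day 28 carried RNA of skeletal muscle and fat, so the comparison was also fitted without it, for 11 against 12 mice and 16204 genes. The number of calls and many of the values are given both ways. Unless stated, a log2 fold change or adjusted p that is given once is from the fit with all mice.

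All mice were male C57BL/6JRj mice aged 12 to 14 weeks at the start. The BLEO-IPF mice of both days were given bleomycin sulphate into the trachea in 1 dose, a DNA-cleaving antibiotic that injures the alveolar epithelium. Mice entered the study groups only if their body weight loss after bleomycin was mild to moderate, and each day is a separate set of mice, so no mouse was followed from day 28 to day 35. The 10 control mice are labelled saline, whereas the treatment description calls them untreated. Sequencing was done on polyadenylated RNA from 1 lobe of the right lung, the inferior one.

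After bleomycin, alveolar and airway epithelium is lost, inflammatory cells enter, and fibroblasts divide and lay down collagen, after which fibrosis in this model slowly recedes. Ciliated cells line the airways and carry motile cilia, whose axoneme is built from proteins that few other lung cells make. Dividing cells of any type share a common set of transcripts for DNA replication, spindle assembly and cytokinesis. In whole lung, fewer cells of a type and less RNA per cell cannot be told apart, and this applies to every value given here.

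Depth was alike on both days, with 9249037 to 13704519 counts per mouse on day 28 and 9240291 to 14355394 on day 35 (p = 0.593, two-sided permutation test). The mitochondrial share of counts was 1.15% to 2.87% on day 28 and 1.23% to 2.15% on day 35. Markers of alveolar type 2 cells, the surfactant-making cells of the lung, summed to 21510 to 47088 CPM (a gene's counts relative to all counts of that mouse, scaled to a common library size) on day 28 and to 31654 to 48643 CPM on day 35, so all 24 libraries held lung RNA. No pair of mice of a day agreed within sampling noise. Values of single genes below are CPM with library sizes scaled by the trimmed mean of M-values (TMM), and sums over a gene list are CPM without that scaling.

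Replicate 10 of day 28 stood apart before any comparison was made. The skeletal muscle list summed to 3141 CPM in this mouse, against 36.6 to 108 CPM in the other 11 mice of day 28, 55.7 to 87.9 CPM on day 35 and 51.2 to 66 CPM in saline mice. White adipose tissue markers summed to 2133 CPM in it, against 57.3 to 94.7 CPM in the others of day 28. Cardiac muscle genes summed to 2671 CPM in it, above 50.4 to 972 CPM in the others of its day. B cell markers were also highest in this mouse of day 28, at 784 CPM against 103 to 447 CPM. It also had the highest mitochondrial share, 2.87%. Each result was therefore also fitted without that mouse. That fit leaves out its lung RNA and a replicate along with this tissue, so it does not give the part of the tissue alone.

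The main result was a small number of differences between the 2 days. A gene was called where the edgeR quasi-likelihood test, fitted over all 75 mice with a mean per group, gave an adjusted p (Benjamini-Hochberg over all genes tested) under 0.05 for day 35 against day 28. With all 24 mice, 206 of 16221 genes were called (1.27%), 131 higher (0.808%) and 75 lower (0.462%) on day 35. Without replicate 10 of day 28, 31 of 16204 genes were called (0.191%), 15 higher (0.0926%) and 16 lower (0.0987%). All 31 were also called with all mice in the same direction. At an unadjusted p under 0.05, 2067 genes (12.7%) passed with all mice and 2099 (13%) without replicate 10. The median log2 fold change over all genes tested was -0.016, and -0.011 without replicate 10.

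No gene separated the 24 mice completely by day, since the range of day 35 overlapped that of day 28 for all 16221 genes (0% not overlapping). When only the mice of these 2 days were fitted, 0 of 14981 genes were called by edgeR, with a lowest adjusted p of 0.266 and 1568 genes at an unadjusted p under 0.05, whereas DESeq2 over all 75 mice called 332 of 15906 genes (2.09%). So all calls below rest on a spread estimated over all 7 groups of the series. In the ciliated cell list, the SD of mean log2 CPM was 0.803 on day 28, 0.274 on day 35 and 0.155 in saline mice. The unadjusted edgeR p of *Calml4* was 1.52e-07 over all mice and 8.02e-05 in the fit of these 2 days. For *Cdc20* it was 0.000125 and 0.00171. The adjusted p below are therefore smaller than these 2 days alone give. Leaving out 1 mouse at a time gave between 31 and 514 calls. Of the 24 mice, 14 moved the number by more than 1.5 times. It fell without replicate 1, 2, 5, 6 or 10 of day 28 (52, 52, 121, 65 and 31 calls) and without replicate 1, 2, 3, 7 or 10 of day 35 (39, 67, 85, 135 and 74 calls). It rose without replicate 8, 11 or 12 of day 28 (514, 491 and 375 calls) and without replicate 6 of day 35 (357 calls). The genes called in all 24 of these fits numbered 10, namely *Calml4*, *1700030J22Rik*, *Ighg3*, *Slc6a15*, *Ptprz1*, *Lca5*, *Agr3*, *Ankrd42*, *Apobec4* and *Sapcd2*.

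**Figure D1:**
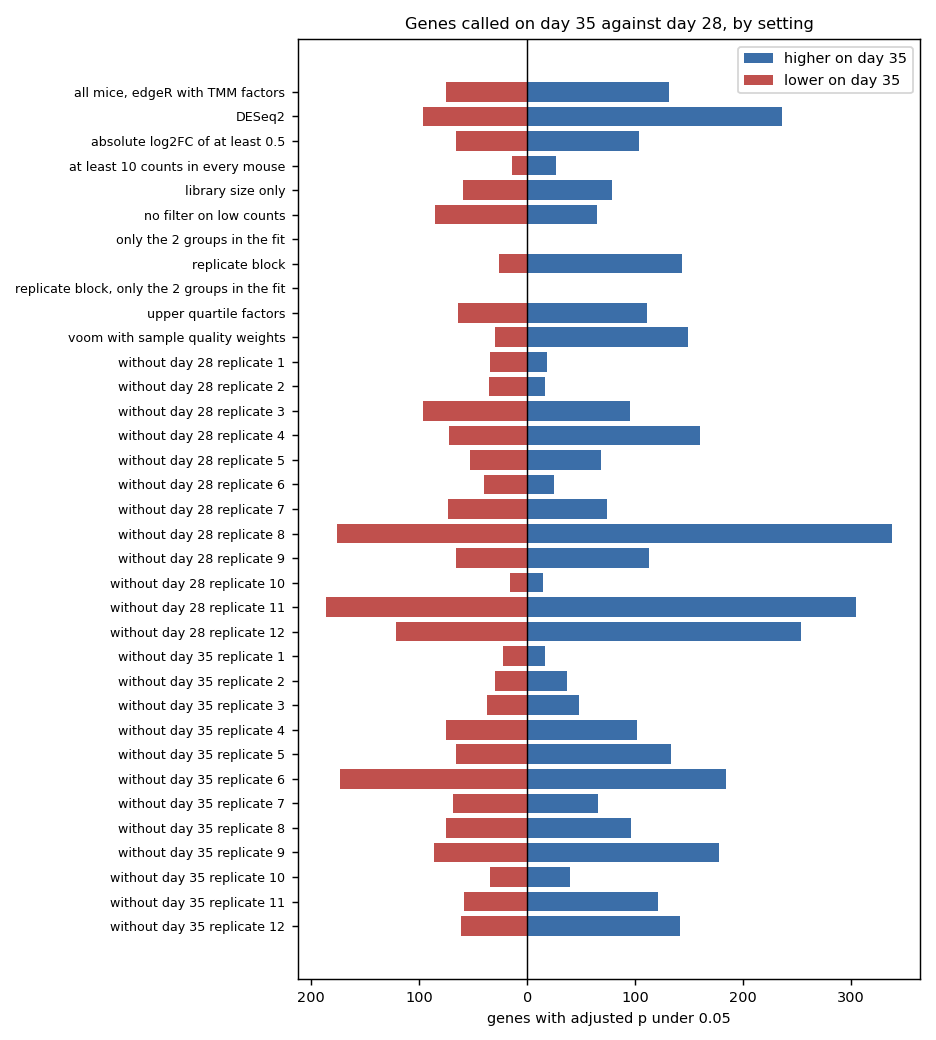
Number of genes called at an adjusted p under 0.05 for day 35 against day 28 under each way of testing, with genes higher on day 35 drawn to the right of 0 and genes lower on day 35 to the left. The bar for all mice holds 131 higher and 75 lower genes, the bar without replicate 10 of day 28 holds 15 and 16, and the fit of only these 2 groups of mice holds 0.

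Among the genes called in both fits that lie outside the immunoglobulin loci, the lowest adjusted p was that of *Calml4* (ENSMUSG00000032246, GRCm38 chr9:62858080-62875921, plus strand), which encodes a calmodulin-like protein. Its lowest, median and highest level was 3.51, 8.87 and 10.5 CPM on day 28 and 10.4, 11.8 and 15.8 CPM on day 35. Of the 12 mice of day 28, 11 lay below the lowest mouse of day 35. *Calml4* rose by 0.64 ± 0.11 (SE) on the log2 scale, or 1.56-fold (edgeR adjusted p = 0.000618), and by 0.62 without replicate 10 (adjusted p = 0.00482). Saline mice spanned 10.8 to 17.2 CPM, so the day 35 mice lay largely in the saline range. Against saline mice, *Calml4* was at a log2 fold change of -0.77 on day 28 (edgeR adjusted p = 1.68e-07) and -0.13 on day 35 (adjusted p = 0.427), values that share their mice with the comparison of the 2 days.

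Also higher on day 35 in both fits were 3 genes of cilia or ciliated cells. *Agr3*, an endoplasmic reticulum protein disulfide isomerase of ciliated airway cells, had a lowest, median and highest level of 0.291, 2.38 and 4.44 CPM on day 28 and 2.52, 4.51 and 7.11 CPM on day 35. With 8 mice of day 28 below every mouse of day 35, *Agr3* rose by 0.93 ± 0.20 on the log2 scale (edgeR adjusted p = 0.0135, and 0.0303 without replicate 10). *Ubxn10*, a UBX-domain protein of cilia, went from 8.33, 19 and 34.5 CPM to 20.3, 36.2 and 50.2 CPM (lowest, median and highest). For *Ubxn10*, 7 mice of day 28 lay below the day 35 range and 5 lay within it, and the log2 fold change was 0.72 ± 0.16 (edgeR adjusted p = 0.0205, and 0.0474 without replicate 10). *Lca5*, which encodes the ciliary protein lebercilin, measured 6.2, 10.5 and 13.8 CPM on day 28 and 11.5, 14.5 and 19.3 CPM on day 35. It rose by 0.49 ± 0.11 (edgeR adjusted p = 0.0135, and 0.0388 without replicate 10), with 7 mice of day 28 below the day 35 range. Saline medians were 4.77 CPM for *Agr3*, 38.2 CPM for *Ubxn10* and 15.7 CPM for *Lca5*, next to the day 35 medians.

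Ciliated cell markers as a list were higher on day 35 at the median, which lay at the lower end of the saline range. The list was not tested against saline mice. The list summed to 142, 522 and 913 CPM (lowest, median and highest) on day 28, to 518, 813 and 1088 CPM on day 35 and to 793, 979 and 1077 CPM in saline mice. Of the day 28 mice, 6 lay below the lowest mouse of day 35, and 11 of 12 day 35 mice lay above the day 28 median. Replicates 1 and 2 of day 28 were the lowest, and replicates 8, 11 and 12 lay in the upper part of the day 35 range. All 21 members had a positive log2 fold change, with a median of 0.60, and 7 rose, where 0.808% of all genes were called higher. Without replicate 10 the median was 0.57 and 0 were called, at edgeR adjusted p of 0.0605 (*Spag6l*) to 0.0999 (*Tmem212*) for those 7. When library sizes were scaled by total counts only 1 member was called, and in the fit of the 2 groups 0.

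The axoneme genes in the list carried these values. *Spag6l*, of the central pair of the axoneme, measured 2.81, 10.6 and 17.6 CPM on day 28 and 13, 16.9 and 24.3 CPM on day 35 (log2 fold change 0.76, edgeR adjusted p = 0.0291). *Rsph1*, of the radial spokes, measured 4.72, 14.5 and 25.8 CPM and then 17, 25.4 and 34.3 CPM (log2 fold change 0.65, edgeR adjusted p = 0.038). Of the 12 mice of day 28, 9 lay below the lowest mouse of day 35 in *Spag6l* and 7 in *Rsph1*. *Ccdc40*, needed to assemble inner dynein arms, had a log2 fold change of 0.69 (edgeR adjusted p = 0.0394). *Foxj1*, the transcription factor of motile ciliated cells, was at 0.51 (adjusted p = 0.0874) and was not called. *Mcidas*, which starts the multiciliated cell program, was at 0.02.

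Genes outside the cilium also rose in both fits. *Slc6a15*, a neutral amino acid transporter, measured 1.84, 4.89 and 7.02 CPM on day 28 and 3.83, 7.50 and 9.53 CPM on day 35, where 9 mice lay above every mouse of day 28. Its log2 fold change was 0.64 ± 0.13 (edgeR adjusted p = 0.00888, and 0.00615 without replicate 10). *Ptprz1*, a receptor-type tyrosine phosphatase, measured 4.26, 6.03 and 11.5 CPM and then 7.15, 10.1 and 18.3 CPM, with 8 mice of day 28 below the day 35 range (log2 fold change 0.65 ± 0.14, edgeR adjusted p = 0.0106, and 0.0303 without replicate 10). *Cd55*, which shields cells from complement, measured 62.2, 80.7 and 103 CPM and then 80.2, 106 and 129 CPM. For *Cd55*, 6 mice of day 28 lay below the day 35 range and 8 mice of day 35 above the day 28 range (log2 fold change 0.36 ± 0.09, edgeR adjusted p = 0.0285, and 0.0388 without replicate 10). *Cd55* kept its call in 20 of 24 fits that left out a mouse. *Ankrd42* was higher by 0.42 ± 0.09 (edgeR adjusted p = 0.0142, and 0.0388 without replicate 10), but a gene on the opposite strand held 164% of its counts, and whether counting used strand is not given in the sources used here. *Apobec4* (1.26), *Ephx4* (1.06) and *1700030J22Rik* (0.84) were also higher in both fits and fall outside the rule for named genes, so they were picked after their values were seen.

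**Figure D2:**
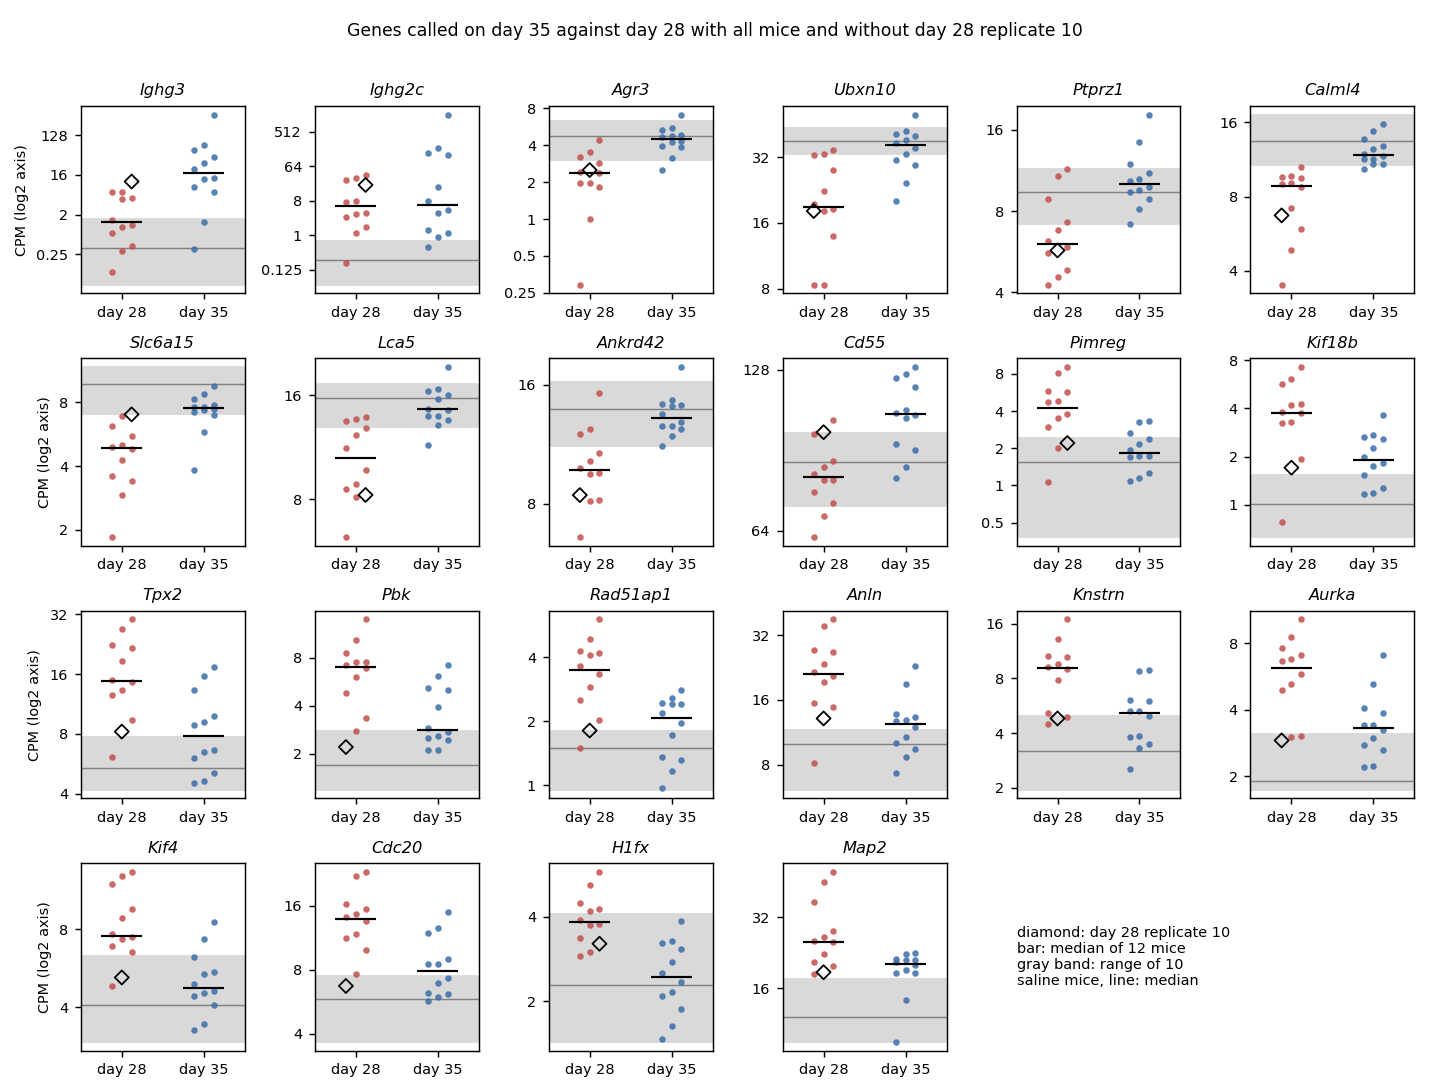
CPM per mouse, on a log2 axis, of the 22 named genes called both with and without replicate 10 of day 28, with 1 point per mouse, diamonds for replicate 10, bars for the median of 12 mice and a gray band for the range of 10 saline mice with a line at their median (values of 0 are drawn at the lower edge). In *Calml4*, 11 of 12 day 28 mice lie below the lowest day 35 mouse, whereas in the other panels more mice of both days overlap.

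Genes of mitosis were lower on day 35. Of the 16 genes lower in both fits, the 12 with the largest changes that met the rule for named genes were *Pimreg*, *Kif18b*, *Tpx2*, *Pbk*, *Rad51ap1*, *Anln*, *Knstrn*, *Aurka*, *Kif4*, *Cdc20*, *H1fx* and *Map2*. Most have known roles in chromosome segregation or DNA repair, while *Map2* encodes a microtubule-associated protein best known from neurons and *H1fx* a linker histone. *Nog* (-1.49), *Sapcd2* (-0.92) and *Tcf19* (-0.51) were also lower in both fits and are named after their values were seen.

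*Tpx2*, which activates Aurora A on the spindle, measured 6.12, 14.7 and 30.1 CPM (lowest, median and highest) on day 28 and 4.56, 7.79 and 17.3 CPM on day 35. With 5 mice of day 28 above every mouse of day 35, *Tpx2* fell by 0.88 on the log2 scale (SE 0.21, edgeR adjusted p = 0.0268), and it fell by 0.95 without replicate 10 (adjusted p = 0.0303). *Aurka*, the Aurora A kinase itself, measured 2.91, 6.21 and 10.3 CPM and then 2.21, 3.32 and 7.08 CPM. Its log2 fold change was -0.74 ± 0.19 (edgeR adjusted p = 0.0329), and -0.81 without replicate 10 (adjusted p = 0.0388), with the 2 groups overlapping between 2.91 and 7.08 CPM. *Aurka* kept its call in 16 of the 24 fits that left out a mouse, and *Tpx2* in 20.

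*Pimreg*, a mitotic regulator, showed the largest fall of the named genes called in both fits. It measured 1.07, 4.27 and 9.10 CPM on day 28 and 1.09, 1.85 and 3.33 CPM on day 35, and 8 of 12 mice of day 28 exceeded every mouse of day 35. Its log2 fold change was -1.12 ± 0.26 (edgeR adjusted p = 0.0242), and -1.19 without replicate 10 (adjusted p = 0.0303). *Anln*, which encodes anillin of the cytokinetic ring, measured 8.11, 21.1 and 37.9 CPM and then 7.32, 12.4 and 23 CPM (log2 fold change -0.78 ± 0.18, edgeR adjusted p = 0.0205). *Rad51ap1*, of homologous recombination repair, measured 1.49, 3.47 and 6.01 CPM and then 0.972, 2.07 and 2.81 CPM, with 8 mice of day 28 above the day 35 range (log2 fold change -0.80 ± 0.19, edgeR adjusted p = 0.0285). The mitotic kinesin *Kif18b* was at a log2 fold change of -0.90 ± 0.23, the mitotic kinase *Pbk* at -0.85 ± 0.21 and the spindle protein *Knstrn* at -0.76 ± 0.20, with edgeR adjusted p between 0.0285 and 0.0339. Without replicate 10 the adjusted p of these 5 genes lay between 0.0303 (*Anln*, *Pbk*) and 0.044 (*Knstrn*). *Knstrn* had the fewest calls of the 12 when mice were left out, 15 of 24.

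*Cdc20* (GRCm38 chr4:118432901-118437352, minus strand), an activator of the anaphase-promoting complex, measured 6.72, 13.8 and 23 CPM on day 28 and 5.71, 7.92 and 14.9 CPM on day 35. Saline mice spanned 3.66 to 7.46 CPM. Its log2 fold change was -0.69 ± 0.17 (edgeR adjusted p = 0.0285), and -0.75 without replicate 10 (adjusted p = 0.0303). The values of *Cdc20* and of the chromokinesin *Kif4* (-0.71 ± 0.16, edgeR adjusted p = 0.0205) are uncertain, because genes on the opposite strand held 3218% and 295% of their counts. For *H1fx* (-0.66 ± 0.16, edgeR adjusted p = 0.0281) an opposite-strand gene held 21.8%. *Map2* measured 18.5, 25.3 and 49.9 CPM and then 9.47, 20.4 and 22.7 CPM, with 7 mice of day 28 above the day 35 range (log2 fold change -0.55 ± 0.13, edgeR adjusted p = 0.0255). *Map2*, *Kif4* and *H1fx* were also called without replicate 10 (adjusted p = 0.0303, 0.0303 and 0.0388).

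Against saline mice, these genes were nearer to control levels on day 35 than on day 28. The log2 fold change against saline was 1.64 on day 28 and 0.52 on day 35 for *Pimreg*, 1.54 and 0.65 for *Tpx2*, 1.48 and 0.74 for *Aurka*, and 1.14 and 0.59 for *Map2*. On day 35, *Aurka* (edgeR adjusted p = 0.0051) and *Map2* (0.000656) still differed from saline mice. So did *Pbk* (0.000612), *Kif18b* (0.00509), *Cdc20* (0.0143), *Tpx2* (0.0257) and *Knstrn* (0.0306). *Pimreg* (0.185), *Rad51ap1* (0.102), *Anln* (0.0676), *Kif4* (0.307) and *H1fx* (0.915) did not pass. Both values of a gene use the same saline mice. The genes were chosen for a fall between these same mice of day 28 and day 35, so that choice favored a nearer value on day 35.

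The list of S phase and mitosis genes held 38 tested members, of which 9 fell, where 0.462% of all genes were called lower, and 0 rose. All 38 had a negative log2 fold change, with a median of -0.60 and of -0.63 without replicate 10, where 3 were called, *Tpx2*, *Cdc20* and *Aurka*. The list summed to 415, 678 and 972 CPM on day 28, 377, 465 and 798 CPM on day 35 and 340, 385 and 444 CPM in saline mice, and 11 of 12 day 35 mice lay below the day 28 median. Replicate 6 was the highest mouse of day 35. *Cdk1*, the mitotic cyclin-dependent kinase, fell by 0.81 on the log2 scale (edgeR adjusted p = 0.0375, and 0.0546 without replicate 10). *Mki67*, a common marker of cycling cells, was at -0.65 (adjusted p = 0.105) and *Top2a* at -0.64 (adjusted p = 0.102). The replicative helicase genes *Mcm2* to *Mcm7* ranged from -0.11 for *Mcm6* to -0.38 for *Mcm5*, and *Pcna* was at -0.13, with none called.

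Promoter sequences of called genes were read for elements known from their promoter classes. Genes of late cell cycle often hold a cell cycle homology region (CHR, TTTGAA or TTCGAA) with CCAAT boxes, and ciliary genes an X-box, searched here as the core GTTGCC. Windows ran from 250 bases before to 50 bases after each start in RefSeq GRCm38.p6, 300 bases in all, and both strands were searched. Of the 9 called S phase and mitosis genes, 6 had a window. All 6 held a CHR, against 19.2% of 32851 windows, and all 6 held CCAAT, against 37.4%. The list was made of cell cycle genes, a class in which these elements are common. Its uncalled members were not counted, so these shares say nothing about the change between the days. *Cdc20* and *Aurka* are also counted in the next set. Immunoglobulins aside, 10 of 15 genes lower in both fits and 10 of 11 genes higher in both fits had a window. A CHR was in 5 of 10 windows of the lower genes (50%) and 0 of 10 of the higher genes. CCAAT was in 6 of 10 (60%) and 4 of 10 (40%). Most of the named lower genes have known roles in chromosome segregation or DNA repair, so these shares too say nothing about the change. GTTGCC was in 2 of 10 windows of the higher genes (20%), against 12.5% of all windows, and in 0 of 10 windows of genes lower in both fits. It was in 2 of 6 windows both of the called ciliated cell genes and of the called S phase and mitosis genes (33.3% each). A match is a description of letters in the window and no proof of binding.

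The windows of *Cdc20* (chr4:118437294-118437593), *Aurka* (chr2:172370521-172370820) and *Kif18b* (chr11:102925075-102925374) are shown as examples of genes that fell in both fits and hold both elements. That of *Lca5* (chr9:83441078-83441377) is an example of a gene that rose in both fits and holds GTTGCC. *Kif4* also holds both elements and *Apobec4* also holds GTTGCC, and their windows are not shown. The 4 windows shown are on the minus strand of GRCm38.p6 and are written in the direction of the gene. Capitals mark CHR and CCAAT in the first 3 and GTTGCC in *Lca5*, whose 3 CCAAT matches are not marked.
Cdc20: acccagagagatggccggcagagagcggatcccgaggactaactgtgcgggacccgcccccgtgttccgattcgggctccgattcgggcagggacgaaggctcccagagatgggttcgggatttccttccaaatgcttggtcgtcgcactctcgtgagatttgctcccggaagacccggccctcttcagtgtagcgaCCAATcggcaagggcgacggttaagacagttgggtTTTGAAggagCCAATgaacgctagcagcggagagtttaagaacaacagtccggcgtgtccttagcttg
Aurka: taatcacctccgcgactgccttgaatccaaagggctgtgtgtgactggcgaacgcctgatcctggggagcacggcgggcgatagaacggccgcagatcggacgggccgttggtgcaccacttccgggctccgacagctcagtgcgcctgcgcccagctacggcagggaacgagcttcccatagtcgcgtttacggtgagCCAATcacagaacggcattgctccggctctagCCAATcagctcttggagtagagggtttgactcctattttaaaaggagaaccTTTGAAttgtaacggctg
Kif18b: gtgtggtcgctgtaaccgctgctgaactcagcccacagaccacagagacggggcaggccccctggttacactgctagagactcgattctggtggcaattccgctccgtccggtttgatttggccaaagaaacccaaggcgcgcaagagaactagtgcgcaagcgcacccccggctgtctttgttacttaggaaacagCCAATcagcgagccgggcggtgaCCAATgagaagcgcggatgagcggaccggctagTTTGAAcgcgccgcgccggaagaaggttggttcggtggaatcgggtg
Lca5: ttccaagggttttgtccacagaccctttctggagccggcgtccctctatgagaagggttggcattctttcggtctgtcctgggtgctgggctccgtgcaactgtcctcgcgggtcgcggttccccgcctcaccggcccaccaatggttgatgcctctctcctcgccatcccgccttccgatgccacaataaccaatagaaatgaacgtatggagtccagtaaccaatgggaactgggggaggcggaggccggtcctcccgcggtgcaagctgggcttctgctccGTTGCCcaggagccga

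Immunoglobulin transcripts showed the largest rises, with strong differences between mice. *Ighg3* (GRCm38 chr12:113356224-113361232, minus strand), the IgG3 heavy chain constant region, measured 0.10, 1.32 and 11.3 CPM on day 28 and 0.336, 17.6 and 382 CPM on day 35. Of the day 35 mice, 8 lay above every mouse of day 28 and 11 of 12 above the day 28 median. Its log2 fold change was 4.07 ± 0.80 (edgeR adjusted p = 0.0040), and 4.44 without replicate 10 (adjusted p = 0.0062). Without replicate 7 of day 35, its highest mouse, it was 2.93 (adjusted p = 0.0457). *Ighg2c*, of IgG2c, measured 0.193, 5.68 and 36.9 CPM on day 28 and 0.504, 6.10 and 1464 CPM on day 35. Here the medians hardly differed, and only replicates 2, 5, 6 and 7 of day 35 lay above the day 28 range, so the log2 fold change of 3.76 ± 0.88 (edgeR adjusted p = 0.0255) rests on 4 mice. Without replicate 7 of day 35 it was 1.91, where *Ighg2c* was not called (adjusted p = 0.252).

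The list of plasma cells and immunoglobulin constant regions had 14 members tested, of which *Ighg3* and *Ighg2c* rose, where 0.808% of all genes were called higher. They rose also without replicate 10. All 14 log2 fold changes were positive with a median of 0.60 (0.86 without replicate 10). The sums over the list ran the other way at the median, from 2087 CPM on day 28 (range 620 to 5818) to 1480 CPM on day 35 (range 964 to 11850). Replicates 2, 5 and 7 of day 35 held 7174, 11850 and 10331 CPM and lay above every mouse of day 28, while 7 of the 12 lay under the day 28 median. *Ighg2b* (log2 fold change 1.5, adjusted p = 0.223), *Igkc* (0.75) and *Jchain*, the joining chain of IgA and IgM (0.74), were not called. B cell markers had 0 of 15 called and a median of 0.17, or 0.41 without replicate 10. Single V gene segments called in both fits went either way, *Igkv4-61* at 4.62 and *Igkv4-86* at -3.01. Immunoglobulin genes are near-identical copies among which reads may be divided, so values of a single segment are uncertain.

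**Figure D3:**
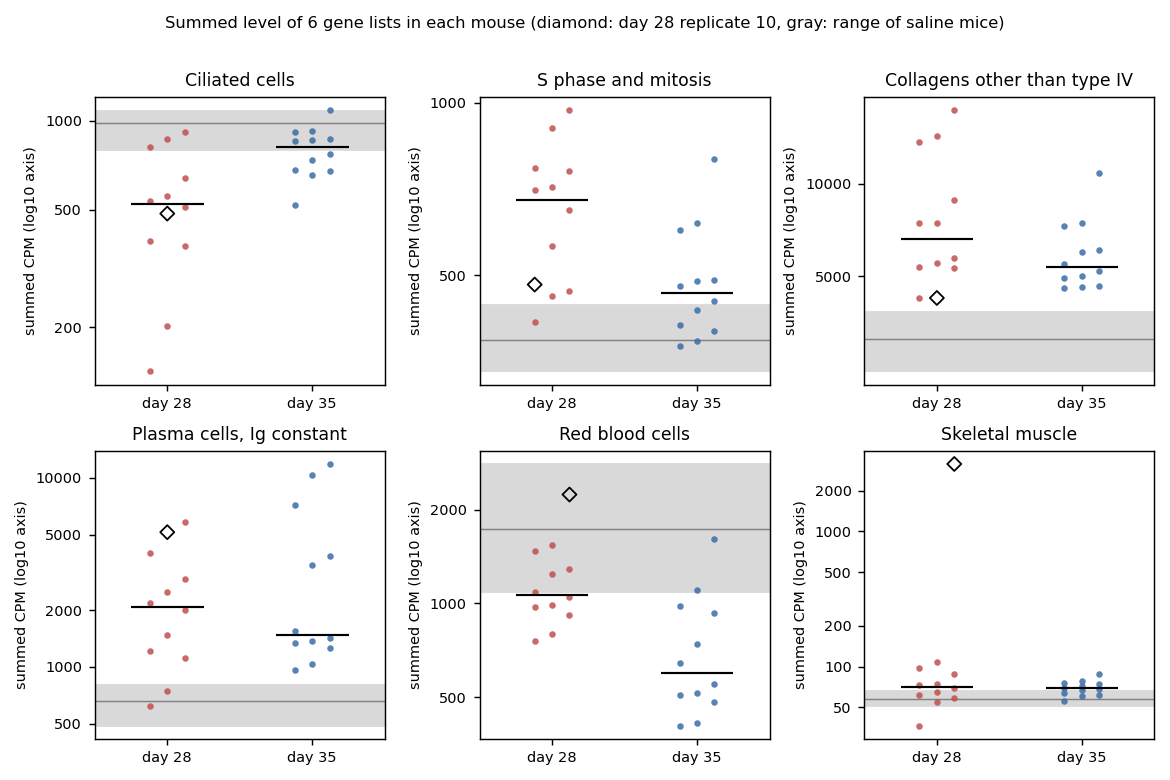
Summed CPM per mouse for 6 gene lists on day 28 and day 35, on a log10 axis, with diamonds for replicate 10 of day 28, bars for the median of 12 mice and a gray band for the saline range with a line at its median. Replicate 10 stands alone in the skeletal muscle panel at 3141 CPM, and 6 day 28 mice lie below all day 35 mice in the ciliated cell panel.

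The lists of collagen chains and of matrix glycoproteins were lower at the median on day 35 and held 0 called genes. Among 22 collagen chains other than type IV, 0 were called, 15 had an unadjusted p under 0.05 and the median log2 fold change was -0.54 (-0.57 without replicate 10). *Col1a1*, of type I collagen, measured 398, 888 and 3274 CPM on day 28 and 457, 613 and 1934 CPM on day 35 (log2 fold change -0.72 ± 0.29, edgeR adjusted p = 0.223), and the ranges overlapped almost fully. *Col12a1*, a fibril-associated collagen with the lowest p in the list, measured 91.6, 154 and 360 CPM and then 73.2, 103 and 190 CPM (-0.62 ± 0.19, edgeR adjusted p = 0.0771, and 0.0752 without replicate 10). The sums of the list were 4239 to 17395 CPM on day 28 and 4594 to 10859 CPM on day 35, with 3 mice of day 28, replicates 1, 4 and 5, above the day 35 range. Saline mice spanned 2452 to 3836 CPM, below every mouse of both days.

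*Plod2*, a lysyl hydroxylase that prepares collagen for crosslinking, was the called gene of the matrix lists. It measured 73.6, 85.7 and 115 CPM on day 28, 47, 69.7 and 95.1 CPM on day 35 and 74.2 to 103 CPM in saline mice, so the day 35 median lay under the saline range. *Plod2* fell by 0.37 on the log2 scale (SE 0.09, edgeR adjusted p = 0.0285), and was not called without replicate 10 (adjusted p = 0.0575). *Col6a6*, a type VI collagen chain in no list and picked after its values were seen, was also lower (log2 fold change -1.63 ± 0.45, edgeR adjusted p = 0.0469), at medians of 0.588 CPM on day 28 and 0.418 CPM on day 35. Replicate 10 was the highest mouse of *Col6a6* at 11.8 CPM, and the gene did not pass the low-count filter without it. *Plod2* was the 1 called gene of 21 in collagen processing, a list with a median of -0.29 (-0.32 without replicate 10). In that list the crosslinking enzyme *Lox* was at -0.92 (adjusted p = 0.0945). Of 25 matrix glycoproteins 0 were called and the median was -0.48 (-0.55 without replicate 10). *Thbs4*, a thrombospondin, measured 3.08, 19.7 and 94.9 CPM and then 1.49, 6.37 and 27.4 CPM (-1.49 ± 0.42, edgeR adjusted p = 0.0542). The 26 genes of TGF-beta ligands, receptors and targets had a median of -0.12 (-0.13 without replicate 10) and 0 called. In the metalloproteinase list *Timp1*, an inhibitor of these enzymes, was at -1.28 (adjusted p = 0.0907). Of 37 genes named in the study's own text, a list chosen by the study on these mice, 36 were tested and 0 were called. Their median was -0.24 (-0.25 without replicate 10).

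The lists of club and secretory, alveolar type 2 and alveolar type 1 cells and of transitional and basal epithelial genes held 0 called genes. The 20 transitional and basal genes had a median log2 fold change of -0.07 (-0.11 without replicate 10), with 12 negative and 8 positive. Other epithelial genes, in no list and picked after their values were seen, rose with all mice but were not called without replicate 10. *Grhl2*, a transcription factor of epithelial cells, measured 12.6, 21.2 and 25.4 CPM on day 28 and 23.2, 26.6 and 28.9 CPM on day 35 (log2 fold change 0.38 ± 0.10, edgeR adjusted p = 0.0339, and 0.0645 without replicate 10). For *Grhl2*, 10 mice of day 28 lay below the lowest mouse of day 35. *Sox2*, a transcription factor of airway epithelium, was at a log2 fold change of 0.69 (edgeR adjusted p = 0.038, and 0.0718 without replicate 10), and *Esrp1*, an epithelial splicing regulator, at 0.32 (0.0255 and 0.0576). The 12 club and secretory cell genes had a median log2 fold change of 0.44 with and without replicate 10, and *Gabrp*, a GABA-A receptor subunit of secretory cells, measured 22, 51.1 and 88.0 CPM on day 28 and 53.3, 83.6 and 107 CPM on day 35 (log2 fold change 0.63, edgeR adjusted p = 0.0822). The medians were 0.17 for 17 alveolar type 2 genes (0.18 without replicate 10) and 0.07 for 17 alveolar type 1 genes (0.07 without it). Red blood cell genes were lower in all 6 members tested, with a median of -0.71 (-0.59 without replicate 10), an unadjusted p under 0.05 in 6 of 6 and 0 called. *Slc4a1*, the erythrocyte anion exchanger, was at -0.97 (edgeR adjusted p = 0.063). Their sum was 756 to 2237 CPM on day 28, 405 to 1610 CPM on day 35 and 1089 to 2804 CPM in saline mice, with replicate 10 the only day 28 mouse above the day 35 range, and their part in the other results was not tested.

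Targets of p53, which bleomycin-induced DNA breaks activate, had 21 members, 0 called and a median of -0.13 (-0.12 without replicate 10). By their sum, 12 of 12 mice of day 35 lay below the day 28 median and 7 mice of day 28 lay above the day 35 range. *Phlda3*, a p53-induced inhibitor of Akt, was at -0.27 (edgeR adjusted p = 0.0916). Interferon-stimulated genes (33 tested), T cell genes (21 tested), alveolar macrophage genes (14 tested) and immediate early genes (25 tested) held 0 called genes. Their medians were 0.06, 0.12, -0.15 and -0.23 in that order. Without replicate 10 these medians were 0.08, 0.12, -0.15 and -0.24. Over the 50 lists, 8 held a called member with all mice and 2 without replicate 10. In the other 42 lists the medians lay between -0.71 and 0.44.

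**Figure D4:**
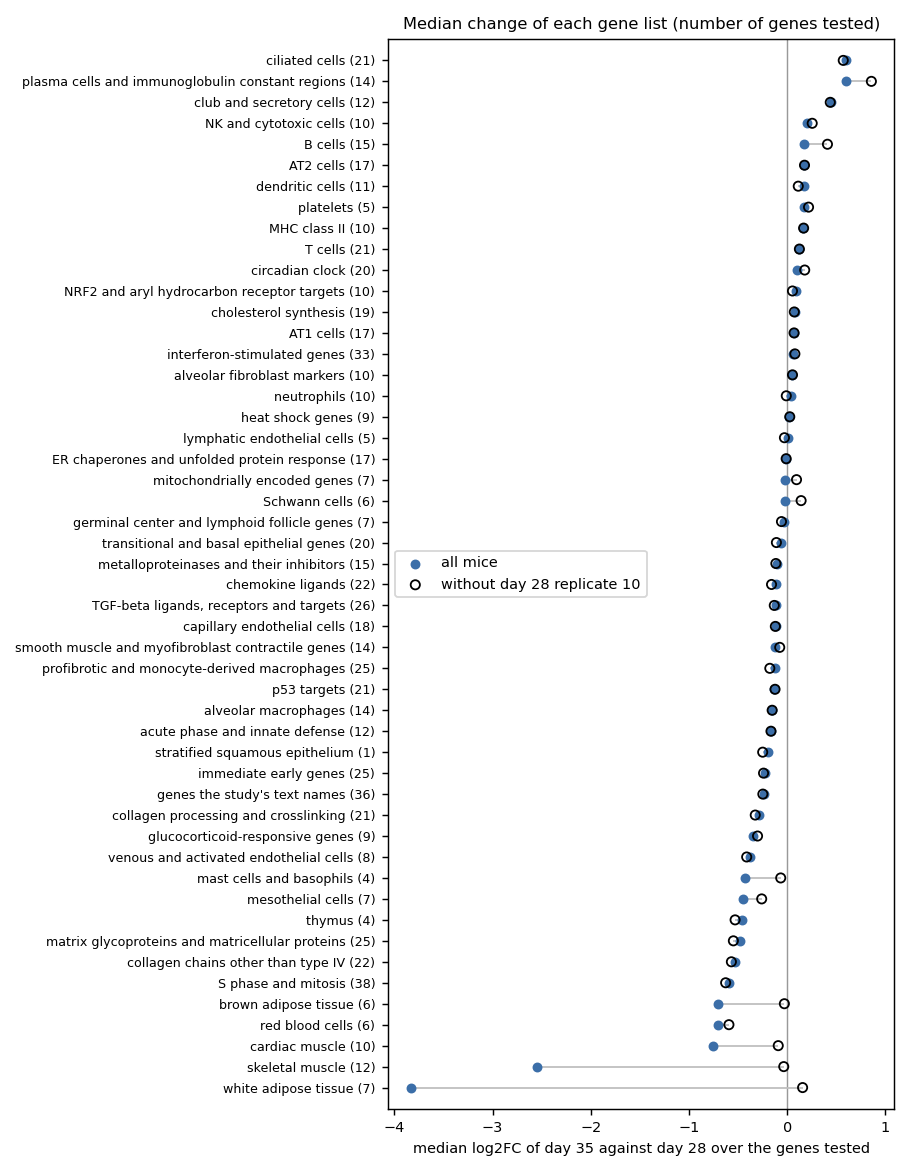
Median log2 fold change, day 35 against day 28, of the tested members of 50 gene lists, with all 24 mice and without replicate 10 of day 28. The medians of ciliated cells (0.60 and 0.57) and of S phase and mitosis (-0.60 and -0.63) hardly differ between the fits, whereas skeletal muscle goes from -2.55 to -0.03 and white adipose tissue from -3.83 to 0.16.

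Without replicate 10, 175 of the 206 calls were lost, and higher and lower genes lost them in different ways. Of 116 higher genes called only with all mice, 115 could be tested without it, all 115 kept their sign, and 113 had an adjusted p under 0.1, at a median log2 fold change of 0.64 against 0.67 before. Of 59 lower genes called only with all mice, 57 could be tested, 42 kept their sign and 24 had an adjusted p under 0.1, and their median went from -1.19 to -0.26. In 36 of these 59, replicate 10 was the highest of all 24 mice, and in 0 of the 16 genes lower in both fits.

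Among the lower genes not called without replicate 10 were genes of muscle and fat. In the skeletal muscle list, 8 of 12 tested genes were called lower with all mice and 0 without it, beside 0.462% of all genes called lower with all mice. In white adipose tissue 6 of 7 were called and then 0, and in cardiac muscle 1 of 10 and then 0. *Nppa*, atrial natriuretic peptide, was at 0 in 7 mice of day 28, 717 CPM in replicate 10, up to 4.45 CPM in the other 4 and up to 1.75 CPM on day 35. Its log2 fold change of -7.40 ± 1.07 (edgeR adjusted p = 2.41e-05) became -1.66 (adjusted p = 0.299). *Atp2a1*, the calcium pump of fast skeletal muscle, was at 348 CPM in replicate 10 and went from -3.97 to 0.41. *Adipoq*, the fat hormone adiponectin, was at 196 CPM in it and went from -4.52 to 0.29. *Fabp4*, a fatty acid binding protein counted here among genes of profibrotic macrophages and also made by fat cells, was at 644 CPM in it and went from -2.07 (edgeR adjusted p = 0.0285) to -0.04 (adjusted p = 0.98).

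**Figure D5:**
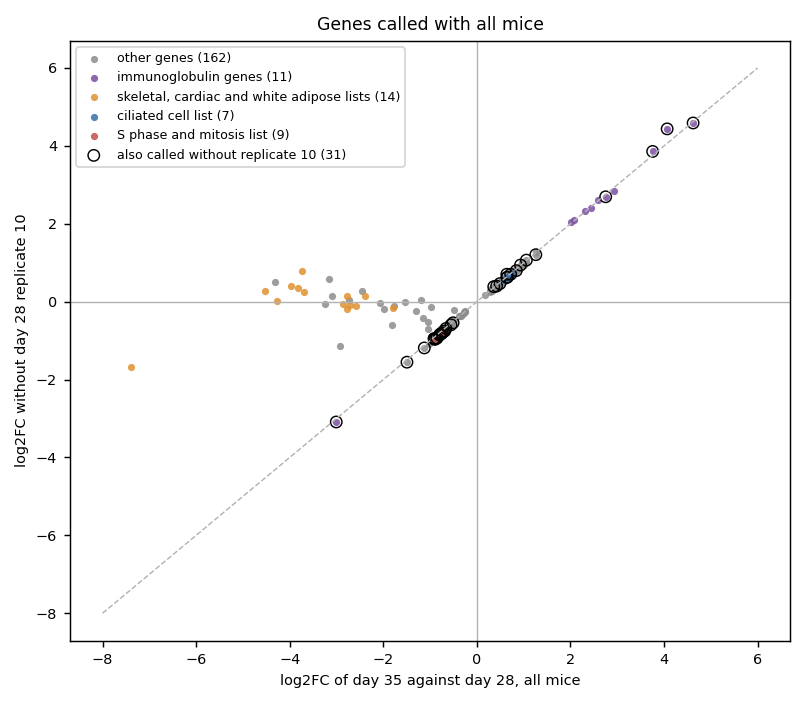
Log2 fold change, day 35 against day 28, with all 24 mice (horizontal axis) and without replicate 10 of day 28 (vertical axis) for the 203 of 206 called genes that were tested both ways, with circles around the 31 called both ways. Higher genes lie along the diagonal, whereas skeletal, cardiac and fat genes at the left lie nearer to 0 on the vertical axis than on the horizontal one.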

How the data were processed

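Raw counts per Ensembl gene and mouse were deposited by the authors. The study's methods give single-end reads of a directional library, aligned with STAR 2.7.0f to GRCm38 (mm10), and the counting program and its strand setting are not given in the sources used here. Groups came from the labels, and the replicates are separate mice. No batch is labelled.

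Counts were analysed in R 4.3.3 with edgeR 4.0.16: filterByExpr, TMM, glmQLFit with 7 group means over 75 mice, glmQLFTest of day 35 against day 28, and Benjamini-Hochberg adjustment over all genes tested, with a threshold of 0.05. The fit was repeated without replicate 10 of day 28. Alternatives were DESeq2 1.42.0, voom with quality weights (limma 3.58.1), other scalings and filters, a fit of only these 2 groups, replicate numbers as a block, and each mouse left out. The code was tested on simulated counts. Samples were compared for depth by permutation tests (100000 resamples, scipy 1.17.1).

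Named genes were up to 12 per direction with the largest log2 fold change among those called in both fits (mean log2 CPM above 1, no clone or predicted genes), up to 3 called genes per list or otherwise the member with the lowest p, and up to 6 genes called only with replicate 10. *Foxj1*, *Mcidas*, *Mki67*, *Top2a*, *Cdk1*, *Pcna*, the *Mcm* genes, *Col1a1*, *Lox*, *Igkc*, *Jchain*, *Ighg2b*, *Igkv4-61* and *Igkv4-86* fall outside this rule. The member that the rule gives for 1 of the lists is not reported here. Members, lists and tests were chosen with earlier results of these data known.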

Additional observations from a re-analysis of the deposited data

How the results depend on the processing

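With all mice 206 genes were called, 131 higher and 75 lower. DESeq2 called 332 (236 higher), a minimum of 10 counts in place of the filter 41 (27 higher, 14 lower), scaling by total counts 79 higher of 138, no filter 65 higher of 150, and voom with quality weights 30 lower of 179. The fit of only these 2 groups called 0, 0 higher and 0 lower. Replicate numbers did not pair the mice (6 of 12 correlations over 0.1, and 0 of 12 pairs were each other's best match), and a replicate block gave 169 calls with 26 lower, or 0 in the 2 groups alone, 0 higher and 0 lower. Without replicate 10, where 31 were called, DESeq2 gave 211 (133 higher, 78 lower), scaling by total counts 20 (8 higher), the replicate block 81 (55 higher, 26 lower) and the 2 groups alone 0. Leaving out 1 mouse gave 31 to 514 calls, 15 to 338 higher and 16 to 186 lower. Signs turned in these log2 fold changes, given under DESeq2 and as the range with 1 mouse left out: *Cyp1a1* 0.76, -1.79 to 0.80, *Tnnt3* 0.26, -3.82 to 0.26, *Plin1* 0.40, -3.96 to 0.34, *Adipoq* 0.38, -4.80 to 0.29, *Pck1* 0.24, -4.51 to 0.029, *Car3* 0.59, -4.44 to 0.51, and *Atp2a1* 0.49, -4.21 to 0.41. *Retn* was at 0.86 under DESeq2, and *Krt4* at -0.44 to 0.043 with 1 mouse left out. The cause was not tested. Of 78 named genes, 61 kept direction and side of the threshold under DESeq2 and 76 with total counts. In the 2 groups 35 did and 33 did not, and the rest of the 78 had no result there. As the fit of the 2 groups called 0 genes, these 35 were all genes not called in the fit over all 75 mice.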

Other observations

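The other days of the series place the values of day 28 and day 35. The ciliated cells list had a median sum of 648 CPM on day 7 (10 mice), 398 CPM on day 14 (12 mice), 399 CPM on day 21 (12 mice), 522 CPM on day 28, 813 CPM on day 35 and 664 CPM on day 42 (7 mice), against 979 CPM in saline mice. Day 42 thus lay between day 28 and day 35, and no difference between day 35 and day 42 was tested. *Calml4* had medians of 11.7, 8.85, 7.39, 8.87, 11.8 and 10.5 CPM over the same days. *Slc6a15* stayed under the saline range at its median on each of these days except day 35, at 4.84, 3.79, 3.78, 4.89, 7.50 and 5.91 CPM, with a saline range of 7.08 to 11.8 CPM.

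The S phase and mitosis list ran the other way, with median sums of 890, 1039, 852, 678, 465 and 427 CPM in the same order of days, against 385 CPM in saline mice. *Ighg3* was at a median of 0.298, 0.810, 0.981, 1.32, 17.6 and 3.06 CPM over these days and at 0.346 CPM in saline mice, and its highest mouse on day 42 reached 39.8 CPM.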
